A study of Homo sapiens with 4 samples.

Results

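The genes described here are 10 genes of polyamine synthesis, control and breakdown, taken by name from the 58735 genes of a count table: ODC1, AMD1, SRM, SMS, AZIN1, OAZ1, OAZ2, SAT1, SMOX and PAOX. All 10 were found, and all 10 were among the 16388 genes that passed the filter on low counts. Polyadenylated RNA was sequenced from MHCC97-H, by its label a line of human liver cancer cells, with the genotype WT in every library. The 2 untreated libraries are titled Wildtype and 16h. The 2 treated libraries had 16 h of clofazimine, an antibiotic of the riminophenazine class, at 40 uM in the sample labels but 30 uM in the series description.

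Polyamines (putrescine, spermidine and spermine) are small, positively charged molecules that bind nucleic acids and are needed for growth and translation. Ornithine decarboxylase (ODC) makes putrescine, and aminopropyl groups from decarboxylated S-adenosylmethionine turn it into spermidine and then spermine. Antizymes bind ODC and send it to the proteasome, antizyme inhibitors sequester antizyme, and acetylation and oxidation break spermine and spermidine down. Much of this control acts on translation and protein turnover, which RNA counts do not measure.

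Untreated libraries totalled 16429147 and 16860578 counts, and clofazimine libraries 13543437 and 16318759. Levels are CPM, the counts scaled by the TMM-adjusted library size, and a count of 0 would allow up to 0.170 to 0.233 CPM, counting error only. Nothing in the labels gives separate cultures for the replicates, and the p-values cover only the spread among these libraries, possibly a technical one. Of 8 hepatocyte and liver cancer markers, ALB, AFP, APOB and TTR had 0 counts in all 4 libraries, and the summed level of the list was 5.59 and 7.02 CPM untreated and 1.40 and 1.64 CPM with clofazimine. SERPINA1 held most of that sum, at 5.13 and 6.85 CPM untreated and 1.32 and 1.38 CPM with clofazimine. The defining liver markers at 0 thus go against the liver label, while SERPINA1 was detected at a low level. The epithelial markers KRT8, KRT18 and EPCAM summed to 1613 and 1882 CPM untreated and 1763 and 1999 CPM with clofazimine (1 of 3 higher, KRT18). Leukocyte markers summed to at most 0.524 CPM with PTPRC at 0, endothelial markers to 25.4 and 32.8 CPM untreated and 5.98 and 5.77 CPM with clofazimine (2 of 3 lower), and fibroblast and stellate markers to 112 and 115 CPM against 144 and 122 CPM (1 higher, 2 lower). Mitochondrial genes took 3.69% and 3.75% of the counts untreated and 2.06% and 2.13% with clofazimine. The part of these shifts in the polyamine results was not tested. Less RNA per cell and fewer cells cannot be told apart in such libraries.

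After clofazimine, 6 of the 10 genes rose, 1 fell and 3 did not pass the test. The rises were in SMOX (2.91-fold) and SAT1 (2.81-fold), which break polyamines down, in ODC1 (2.19-fold) and SRM (1.64-fold), which make them, and in AZIN1 (1.92-fold) and OAZ1 (1.62-fold), which act on ODC in opposite directions. PAOX fell 1.87-fold from a low level, and AMD1, SMS and OAZ2 were not called. Over all 16388 genes 59.9% were called, 29.5% higher and 30.4% lower (quasi-likelihood test of edgeR at an adjusted p under 0.05, by Benjamini and Hochberg). Of the calls over all genes 49.2% were higher, and 37.4% were with library totals in place of TMM, which gave 3732 higher and 6245 lower. A share of 70.0% called among the members is therefore near the background. The members' median log2 fold change was 0.70, beside -0.03 over all genes tested. The 2 groups did not overlap for 7 of the 10 members, and for 80.8% of all genes.

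**Figure D1:**
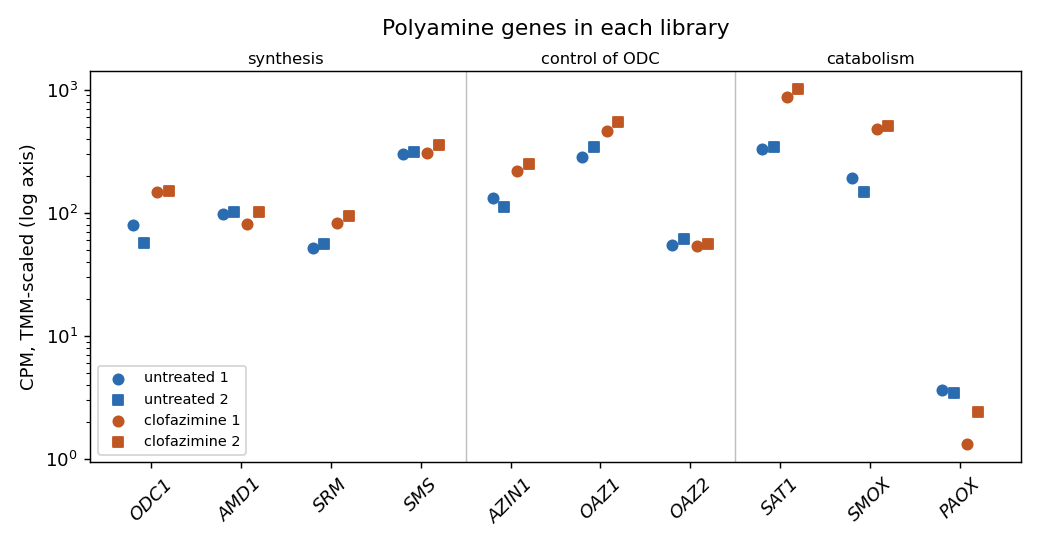
Level of each polyamine gene in each of the 4 libraries, as TMM-scaled CPM on a log axis, with blue for untreated, orange for clofazimine, circles for replicate 1 and squares for replicate 2. SAT1 and SMOX show the widest gaps between groups among the genes that rose, and AMD1, SMS and OAZ2 overlap between groups.

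Among the genes of synthesis, ODC1 (ENSG00000115758, GRCh38 chromosome 2, 10439968 to 10448504, minus strand) encodes ornithine decarboxylase, the enzyme that makes putrescine. It stood at 79.9 and 57.2 CPM in the untreated and at 148 and 151 CPM in the clofazimine libraries. Both clofazimine libraries lay above both untreated ones, and the untreated pair were further apart (68.5 ± 16.1 CPM, mean ± SD, n = 2) than the clofazimine pair (150 ± 2.16 CPM, n = 2). The log2 fold change was 1.13 ± 0.14 (SE), with an edgeR adjusted p of 5.31e-06. Of all genes tested, 91.1% had a lower log2 fold change.

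ODC1 is known as a target of the transcription factor MYC, which binds the E-box letters CACGTG, and these letters were looked for in the windows that RefSeq (GRCh38.p14) gives around gene starts, 250 bases before to 50 after each. CACGTG, its own reverse complement, occurred in 7.26% of all 35116 windows. AZIN1, SMOX and PAOX had no window and were not searched for this or any other motif. Of the 7 members with a window (10 windows, since ODC1 and AMD1 have several starts), ODC1 and SRM hold it, ODC1 at 2 places in its downstream start window. The ODC1 stretch just before that start, free of annotated exon bases, is shown for its E-box, in capitals (chr2:10448013-10448120, minus strand, 5′ to 3′).
ODC1: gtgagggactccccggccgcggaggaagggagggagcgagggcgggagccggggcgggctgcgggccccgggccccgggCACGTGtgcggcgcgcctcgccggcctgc

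SRM (ENSG00000116649, chromosome 1, 11054584 to 11060024, minus strand) encodes spermidine synthase, which adds an aminopropyl group to putrescine. Its levels were 51.7 and 55.9 CPM untreated and 82.9 and 93.5 CPM with clofazimine. The groups were apart, by more than either pair's spread (53.8 ± 2.96 against 88.2 ± 7.56 CPM, mean ± SD, n = 2 each). SRM thus had a log2 fold change of 0.71 ± 0.12 (SE; edgeR adjusted p 9.43e-05). The SRM stretch before its start is shown beside that of ODC1 because it holds the same E-box letters, in capitals together with CCAAT or its reverse complement ATTGG (chr1:11060025-11060268, minus strand).
SRM: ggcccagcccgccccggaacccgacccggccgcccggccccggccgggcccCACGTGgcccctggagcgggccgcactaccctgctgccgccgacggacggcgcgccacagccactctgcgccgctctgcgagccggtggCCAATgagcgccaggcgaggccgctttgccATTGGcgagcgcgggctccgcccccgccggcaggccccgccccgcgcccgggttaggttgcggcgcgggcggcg

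SMS (ENSG00000102172, chromosome X, 21940573 to 21994835, plus strand) encodes spermine synthase, the next enzyme in the pathway. It was at 300 and 309 CPM untreated and at 308 and 354 CPM with clofazimine, so the groups overlapped. For SMS the log2 fold change was 0.12 ± 0.13 (SE), with a 95% interval from -0.15 to 0.39 and an edgeR adjusted p of 0.42. The ratio of SMS to SRM, each per kilobase of exon, was 5.09 and 4.86 untreated and 3.27 and 3.33 with clofazimine. The 2 groups were apart, at a ratio 1.51-fold lower with clofazimine, and the exact two-sided permutation p was 0.33, the smallest that 2 libraries against 2 allow.

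AMD1 (ENSG00000123505, chromosome 6, 110874770 to 110895713, plus strand) encodes S-adenosylmethionine decarboxylase, which provides the aminopropyl donor for both synthases. It was at 97.5 and 100.9 CPM untreated and at 80.5 and 101.0 CPM with clofazimine, with one clofazimine library below and the other level with the untreated pair. AMD1 had a log2 fold change of -0.13 ± 0.13 (SE; 95% interval -0.40 to 0.14; edgeR adjusted p 0.40). AMD1 has the largest exon length of the 4 synthesis genes, 7027 bases, and a GC content of 37.7% in its longest annotated transcript. Across the genes tested, log2 fold change fell weakly with exon length (Spearman rho -0.149, across 16388 genes that are not independent replicates). The difference between the clofazimine libraries themselves, replicate 2 minus replicate 1, followed exon length more strongly (rho -0.195). Longer genes thus tended weakly to be lower in replicate 2. AMD1 was higher in that replicate, and the part of length in its difference was not tested. The separate parts of length and GC were not tested. Under a correction for both together, OAZ2, at 7671 exon bases and 48.5% GC, went from -0.07 to 0.14. With that correction AMD1 was called lower at -0.40 (edgeR adjusted p 0.0041). It was also called lower under library totals (-0.29) and without clofazimine replicate 2 (-0.30), and was at 0.03 without clofazimine replicate 1.

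**Figure D2:**
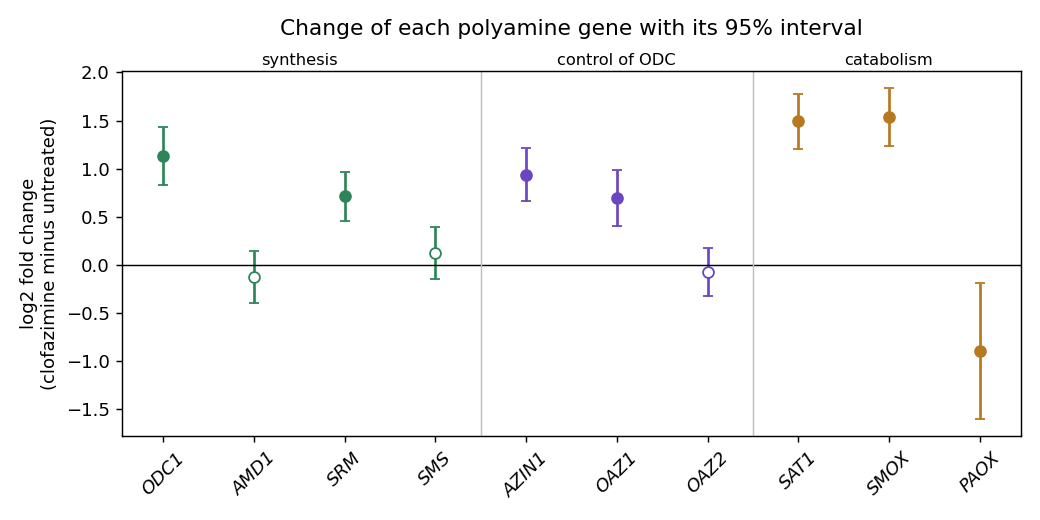
Log2 fold change of each polyamine gene, clofazimine minus untreated, with its 95% interval from the edgeR fit, in green for synthesis, violet for control of ODC and ochre for catabolism. Filled points were called and open points were not, and the intervals of AMD1, SMS and OAZ2 include 0.

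Of the genes that control ODC, AZIN1 (ENSG00000155096, chromosome 8, 102826357 to 102893864, minus strand) encodes antizyme inhibitor 1, an ODC homolog without decarboxylase activity that binds antizyme and so spares ODC. It was at 133 and 111 CPM untreated and at 218 and 249 CPM with clofazimine. Both clofazimine libraries were above both untreated ones (122 ± 14.9 against 234 ± 21.7 CPM, mean ± SD, n = 2 each). AZIN1 rose by a log2 fold change of 0.94 ± 0.13 (SE; edgeR adjusted p 1.44e-05). AZIN1-AS1, which overlaps it on the opposite strand, had between 3 and 27 counts per library, against 1969 to 3799 for AZIN1.

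OAZ1 (ENSG00000104904, chromosome 19, 2269509 to 2273490, plus strand) encodes antizyme 1, whose synthesis needs a ribosomal frameshift that polyamines promote. It was at 283 and 341 CPM untreated and at 463 and 546 CPM with clofazimine. The groups were apart (312 ± 40.9 against 505 ± 59.0 CPM, mean ± SD, n = 2 each). The log2 fold change was 0.69 ± 0.14 (SE; edgeR adjusted p 4.56e-04). JSRP1, on the opposite strand over 236 shared exon bases, had 5 to 21 counts.

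OAZ2 (ENSG00000180304, chromosome 15, 64687573 to 64703281, minus strand) encodes a second antizyme. It was at 55.1 and 60.7 CPM untreated and at 54.2 and 55.9 CPM with clofazimine, and the groups overlapped. For OAZ2 the log2 fold change was -0.07 ± 0.12 (SE; 95% interval -0.33 to 0.18; edgeR adjusted p 0.61). The ratio of OAZ2 to OAZ1 per kilobase of exon was 0.0873 and 0.0798 untreated and 0.0524 and 0.0458 with clofazimine. It was lower in both clofazimine libraries than in both untreated ones, by 1.70-fold (exact two-sided permutation p 0.33, the smallest possible).

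For the balance of ODC1 and its regulators, ODC1 to OAZ1, per kilobase of exon, was 0.327 and 0.194 untreated and 0.371 and 0.321 with clofazimine, which overlap (exact permutation p 0.667). Its change in log2 ratio was 0.45, but 0.83 without untreated replicate 1 and 0.08 without untreated replicate 2. AZIN1 to OAZ1 was 0.250 and 0.175 untreated and 0.252 and 0.244 with clofazimine, which also overlap (exact permutation p 0.667), and its change of 0.24 became 0.50 and -0.01 without these same libraries. AZIN1 to ODC1 was 0.766 and 0.900 untreated and 0.680 and 0.760 with clofazimine. These last groups were apart only narrowly (exact permutation p 0.33), with a difference of -0.21 in log2 ratio that was close to the spread of the untreated pair (SD 0.17).

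**Figure D3:**
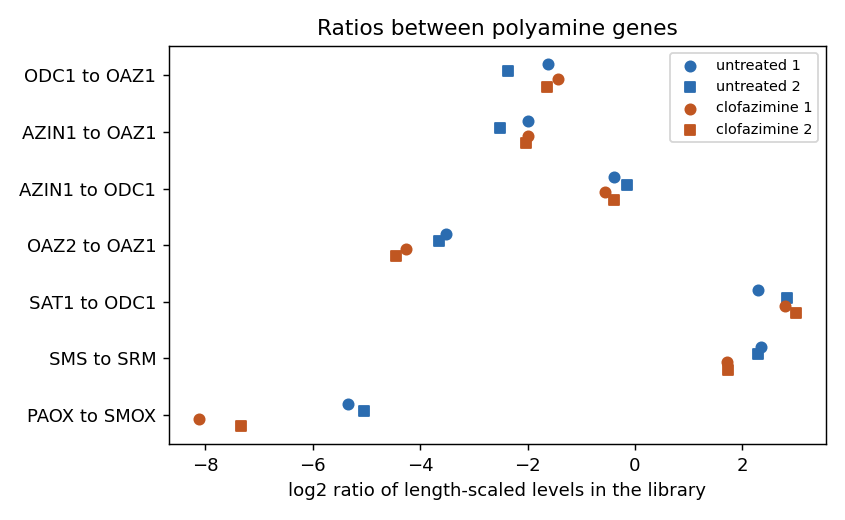
Log2 ratio of exon-length-scaled levels between pairs of polyamine genes in each library, with blue for untreated and orange for clofazimine. OAZ2 to OAZ1, SMS to SRM, PAOX to SMOX and, narrowly, AZIN1 to ODC1 are lower in both clofazimine libraries. ODC1 to OAZ1, AZIN1 to OAZ1 and SAT1 to ODC1 overlap.

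Among the genes of catabolism, SAT1 (ENSG00000130066, chromosome X, 23783173 to 23786226, plus strand) encodes spermidine/spermine N1-acetyltransferase, the rate-limiting step of polyamine breakdown, whose amount rises with polyamine excess and with many stresses. It was at 328 and 342 CPM untreated and at 870 and 1013 CPM with clofazimine. Every clofazimine value exceeded every untreated one (335 ± 10.3 against 941 ± 101 CPM, mean ± SD, n = 2 each). The log2 fold change was 1.49 ± 0.14 (SE; edgeR adjusted p 1.58e-07), above that of 94.5% of genes tested. The ratio of SAT1 to ODC1 per kilobase of exon was 4.87 and 7.11 untreated and 6.97 and 7.95 with clofazimine, which overlap (exact permutation p 0.67). Its change in log2 ratio was 0.34, and 0.06 without untreated replicate 1 and 0.61 without untreated replicate 2.

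The 250 bases before the SAT1 start are shown beside those of ODC1 and SRM because SAT1 is the most abundant member after clofazimine and its window holds no CACGTG. Capitals mark CCAAT or its reverse complement ATTGG, found in 34.6% of all windows (chrX:23782923-23783172, plus strand).
SAT1: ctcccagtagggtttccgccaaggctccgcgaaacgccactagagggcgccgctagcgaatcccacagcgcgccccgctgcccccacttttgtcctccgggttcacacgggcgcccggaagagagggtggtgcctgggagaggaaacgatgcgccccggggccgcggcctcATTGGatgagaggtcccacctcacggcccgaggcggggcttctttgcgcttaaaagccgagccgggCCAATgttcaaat
Over both strands and counting overlapping matches, CCAAT letters were in windows of 5 of the 7 members, the GC box GGGCGG in 6 (45% of all windows), the cyclic AMP element letters TGACG in 4 (24.6%) and the antioxidant element core TGACNNNGC in ODC1 alone (13.3%). The ATF4 element letters TGATGNAA were in windows of 0 of the 7 members and in 3.62% of all windows. A member was counted if any of its windows matched, and ODC1 and AMD1 have several, while the percentages are of single windows. These are matches of letters in short windows and do not show binding.

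SMOX (ENSG00000088826, chromosome 20, 4120980 to 4187747, plus strand) encodes spermine oxidase, which turns spermine directly into spermidine and releases hydrogen peroxide. It was at 190 and 147 CPM untreated and at 475 and 505 CPM with clofazimine. The groups were far apart beside their spreads (169 ± 30.9 against 490 ± 21.2 CPM, mean ± SD, n = 2 each). SMOX rose by a log2 fold change of 1.54 ± 0.14 (SE; edgeR adjusted p 1.77e-07), above that of 94.7% of genes tested.

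PAOX (ENSG00000148832, chromosome 10, 133379234 to 133391694, plus strand) encodes the peroxisomal oxidase that acts on the acetylated products of SAT1. It had 64 and 61 counts untreated and 17 and 37 counts with clofazimine, or 3.65 and 3.45 against 1.32 and 2.43 CPM. Both clofazimine libraries were lower, and they differed from each other more than the untreated pair did. The log2 fold change was -0.90 ± 0.34 (SE; edgeR adjusted p 0.029). The call ended without clofazimine replicate 1 (-0.55), without untreated replicate 1 (-0.88), without untreated replicate 2 (-0.95), without a filter (-0.90) and with DESeq2 (-0.90). PAOX to SMOX per kilobase of exon was 0.0248 and 0.0305 untreated and 0.00360 and 0.00621 with clofazimine, a ratio 5.81-fold lower (exact permutation p 0.33).

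To compare levels between genes, CPM was divided by kilobases of exon. In the untreated libraries SMS (141 ± 3.07) and SAT1 (134 ± 4.13 CPM per kilobase, SD, n = 2) came highest, with SMS at 139 and 143 and SAT1 at 131 and 137. Then followed OAZ1 at 90.8, SMOX at 57.2, SRM at 28.3, ODC1 at 23.1, AZIN1 at 19.0, AMD1 at 14.1, OAZ2 at 7.55 and PAOX at 1.56. ODC1 was above AZIN1 in both untreated libraries (26.9 against 20.6 and 19.3 against 17.3), though their ranges over libraries overlap. With clofazimine SAT1 led at 377, followed by SMOX at 166, SMS at 153 and OAZ1 at 147. SMOX was above SMS and SMS above OAZ1 within each clofazimine library (161, 143 and 135 in replicate 1, and 171, 164 and 159 in replicate 2), though the range of SMS over libraries overlaps both others. Below these came ODC1 at 50.5, SRM at 46.5, AZIN1 at 36.4, AMD1 at 12.9, OAZ2 at 7.18 and PAOX at 0.823. Per kilobase of coding sequence SAT1, OAZ1 and SMS led in both groups and OAZ2 moved up to the fourth place in the untreated group. OAZ2 has 7671 bases of annotated exon and 567 of coding sequence, so the order depends on the length used.

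The other genes of the pathway were taken from 5 lists with 38 entries, of which 31 were tested, and 12 rose and 8 fell (64.5% called). With 59.9% of all genes called, that share is near the background, and the median log2 fold change was 0.09. The arginine and ornithine supply had 2 of 8 tested genes higher and 3 lower, and the 2 not tested, ARG1 and SLC25A2, had at most 5 counts in a library. The count became 1 higher and 2 lower both without untreated replicate 2 and without a filter. ARG2, the mitochondrial arginase that makes ornithine, rose from 13.3 and 17.1 to 23.9 and 25.0 CPM, a log2 fold change of 0.69 ± 0.16 (SE). ASS1, argininosuccinate synthase, rose by 0.38 ± 0.14, a call that ended under library totals (0.21), without a filter (0.38) and without untreated replicate 2 (0.25). SLC25A15, the mitochondrial ornithine carrier, and SLC7A2, a carrier of cationic amino acids, fell, at -0.72 ± 0.18 and -0.61 ± 0.12. ARG2 shares 904 exon bases with VTI1B on the opposite strand, and whether counting used strand is not given in the sources used here.

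Methionine activation and salvage, which provides S-adenosylmethionine and recycles the methylthioadenosine that both synthases release, had 5 of 9 tested genes higher and 0 lower in the edgeR test (5 higher and 1 lower with the length and GC correction). The 55.6% called lies near the 59.9% of all genes, of which 29.5% were higher and 30.4% lower. GOT1, an aminotransferase that can complete the salvage, rose from 58.6 and 52.2 to 99.3 and 114 CPM (log2 fold change 0.94 ± 0.12, SE). ENOPH1, a salvage enzyme, rose from 39.5 and 36.6 to 66.1 and 76.6 CPM (0.91 ± 0.13). MTAP, which begins the salvage, was not called (0.09 ± 0.12). MAT2A, whose product makes S-adenosylmethionine, averaged 349 ± 9.20 CPM untreated and 349 ± 27.5 CPM with clofazimine (mean ± SD, n = 2 each) and was not called.

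Spermidine is also the donor for hypusine, a modified lysine that the translation factor eIF5A needs. Of the 4 genes, 3 rose and 0 fell in the edgeR test, where 59.9% of all genes were called and 29.5% were higher. DHPS, deoxyhypusine synthase, rose from 4.39 and 4.47 to 11.8 and 11.1 CPM (log2 fold change 1.37 ± 0.20, SE; adjusted p 2.59e-05). DHPS shares 1157 exon bases with AC010422.8 on the same strand and 116 with WDR83 on the opposite strand, so its counts may be incomplete or shared. DOHH, the hydroxylase that completes the change, rose from 17.7 and 18.4 to 30.8 and 35.1 CPM (0.87 ± 0.14). EIF5A2, the less common form of the factor, rose from 6.85 and 7.53 to 14.8 and 18.4 CPM (1.21 ± 0.18). When corrected for length and GC, EIF5A2 was at 0.73, DHPS at 1.56 and DOHH at 0.89. EIF5A itself stood at 429 and 439 CPM untreated and at 486 and 537 CPM with clofazimine, without overlap, and was not called (0.24 ± 0.13; edgeR adjusted p 0.12). It was called higher at 0.31 without clofazimine replicate 1 and at 0.41 when corrected for length and GC. EIF5A shares 241 exon bases with GPS2 on the opposite strand.

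Polyamine transport had 1 of 7 tested genes higher and 5 lower, where 29.5% of all genes were higher and 30.4% lower. ATP13A3, a P-type ATPase of polyamine uptake, rose from 220 and 221 to 358 and 310 CPM (log2 fold change 0.60 ± 0.13, SE; adjusted p 6.96e-04). ATP13A2, the lysosomal polyamine exporter, went the other way, from 94.4 and 99.7 to 62.6 and 58.3 CPM (-0.68 ± 0.12; adjusted p 1.09e-04). SLC22A3, an organic cation transporter, was lower at -0.70 ± 0.25 (adjusted p 0.022), a call that ended with DESeq2 (-0.68), without a filter (-0.70), without clofazimine replicate 2 (-0.53) and without untreated replicate 2 (-0.57). The count of 5 lower genes was smaller without some of the single libraries, but such fits leave 1 sample in a group. The list's median log2 fold change was -0.49 with all 4 libraries. It was -0.58 without untreated replicate 1, -0.45 without untreated replicate 2, -0.32 without clofazimine replicate 1 and -0.53 without clofazimine replicate 2. With all 4 libraries the count of lower genes was 3 with DESeq2 and 2 without a filter.

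Among the paralogs and other oxidases, SAT2, a relative of SAT1 that acetylates thialysine and is not thought to act mainly on polyamines, rose from 26.2 and 24.3 to 62.2 and 65.2 CPM. Its log2 fold change of 1.33 ± 0.13 (SE; edgeR adjusted p 2.30e-07) stood beside the 1.49 ± 0.14 of SAT1, in the same 4 libraries. The paralogs AZIN2 (0.02 ± 0.26) and OAZ3 (0.17 ± 0.55) had at most 77 and 13 counts in a library and were not called. AOC1, which encodes diamine oxidase, had 0 counts in all 4 libraries.

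**Figure D4:**
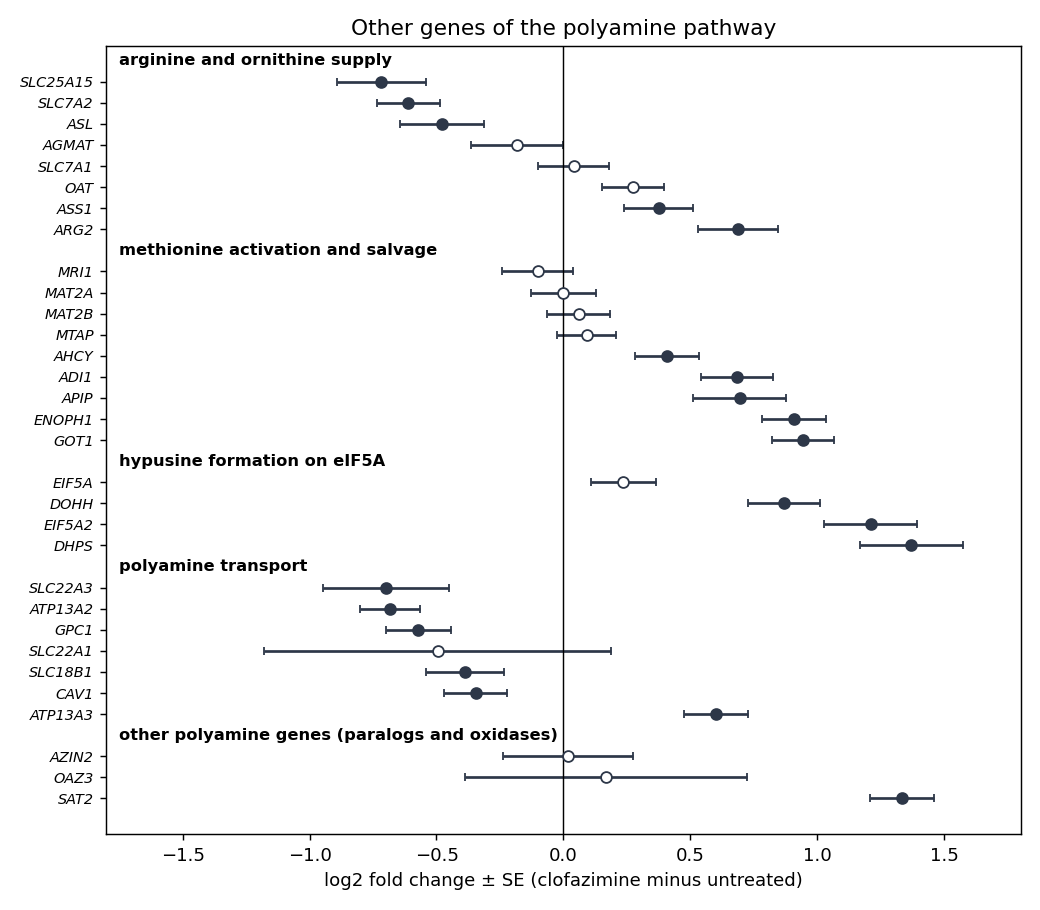
Log2 fold change with its SE, clofazimine minus untreated, of the 31 tested genes in 5 lists around the polyamine pathway, with filled points called by edgeR and open points not called. Genes of hypusine formation and of methionine salvage lie mostly to the right of 0, and all transport genes except ATP13A3 lie to the left.

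The rises of ODC1, SRM, AZIN1, OAZ1, SAT1 and SMOX were called in each of the 12 alternative settings, which include other scalings, other tests and each library left out in turn. Library totals in place of TMM shifted the median of all genes by -0.17 on the log2 scale, and these 6 genes remained higher, from 0.53 for OAZ1 to 1.37 for SMOX. With the length and GC correction their log2 fold changes ran from 0.78 for SRM to 1.72 for SMOX. All of these settings reuse the same libraries. Between 8133 and 9977 genes were called in each alternative that kept every library. The share of all genes called in every setting was not counted, so whether the persistence of these 6 calls is unusual was not tested.

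**Figure D5:**
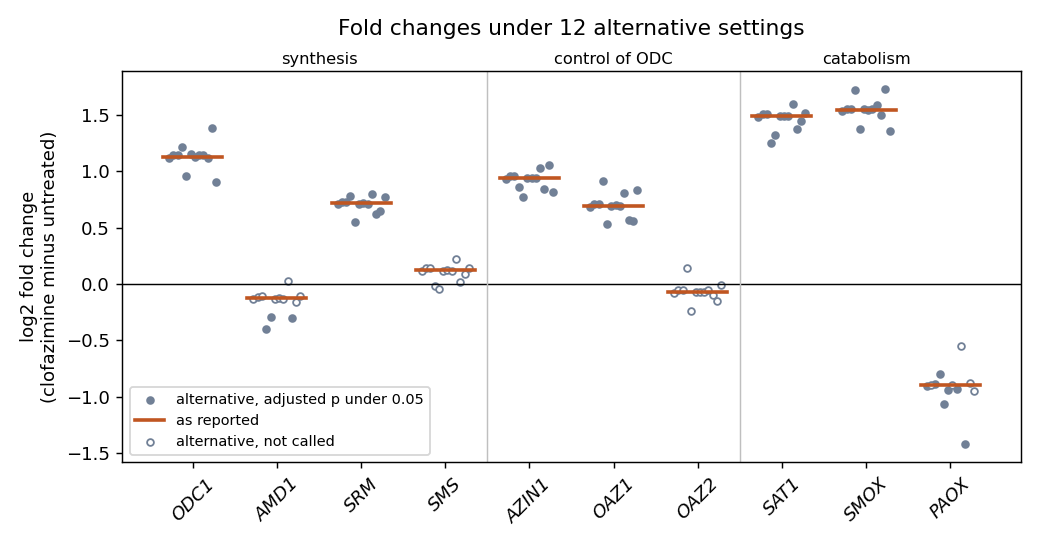
Log2 fold change of each polyamine gene as reported (orange line) and in 12 alternative settings (points, filled where the adjusted p was under 0.05 and open where it was not). ODC1, SRM, AZIN1, OAZ1, SAT1 and SMOX stay above 0 and filled throughout, while AMD1 and PAOX change between filled and open.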

How the data were processed

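Raw counts per Ensembl gene were deposited by the authors as whole numbers, judged from the values. The submitters used fastp and GRCh38, per the submitters' processing notes; the aligner, counter, strand setting and annotation are not given in the sources used here. All 58735 identifiers matched GENCODE 29, which gave symbols, GRCh38 coordinates and exon lengths. Control columns were matched to the Wildtype titles by number.

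The main test was the one of edgeR 4.0.16 under R 4.3.3 (quasi-likelihood, TMM, filterByExpr with a minimum count of 10 and total of 15, no replicate term), adjusting p-values over all 16388 genes. The SE of a log2 fold change is its absolute value over the root of F. Tools for the alternatives were DESeq2 1.42.0, limma 3.58.1 and mgcv 1.9.3. The code was tested on simulated counts. Alternatives were library scaling by DESeq2 size factors or totals, no filter or 1 CPM in 2 libraries, DESeq2, limma-voom, a replicate block, an exon length and GC offset, and each library left out. Replicates differed by more than counting noise (chi-square per degree of freedom 6.32 and 12.2).

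The members, gene lists and naming rule were chosen with earlier results of these data known. The rule named all members, the 2 largest called rises and falls without overlap in each list, and every hypusine gene. MTAP, MAT2A, ARG1, SLC25A2, AZIN2, OAZ3 and AOC1 were named after their values were seen.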

Additional observations from a re-analysis of the deposited data

How the results depend on the processing

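The count of called members was 7 and lay between 6 and 8 in the 12 alternatives, with 6 higher in each. Over all genes the count was 9811, and it lay between 8133 and 9977 in the alternatives that kept all 4 libraries. For the other pathway genes, 31 of them tested in the main fit, it was 20 and lay between 15 and 22 in those alternatives. None of these counts moved by more than 1.5 times, but the number of genes tested was not fixed. It was 16388 in the main fit, 31458 without a filter and 15103 with 1 CPM in 2 libraries. Without a filter 8361 of the 31458 genes were called, beside 6 of the 10 members, so the share over all genes depends on the filter. With the replicate number as a block, 7 members were called and 9605 genes in all. The same-numbered libraries did not deviate together (correlation -0.05 across genes), and the labels do not say that the numbers pair the samples. Of the members, the calls that changed were those of PAOX, which ended in 5 alternatives, and AMD1, gained in 3. PAOX has at most 64 counts in a library, which limits its precision. Leaving out a library leaves 1 sample in its group, assumed to vary like the other group. Gene-level counts do not separate isoforms, and ratios between genes have too few libraries to reach an exact p below 0.33.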
